A study of Mus musculus with 6 samples.

Results

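The matrix metalloproteinases (MMPs), the ADAM, ADAMTS and ADAMTS-like (ADAMTSL) genes and the tissue inhibitors of metalloproteinases (TIMPs) were examined in RNA-Seq data of mouse embryonic fibroblasts (MEFs). The members were all genes whose symbol starts with Mmp, Adam, Adamts, Adamtsl or Timp followed by a number, each represented by the transcript with the highest mean. This gave 85 of the 25043 genes in the table, with 23 MMP, 34 ADAM, 19 ADAMTS, 5 ADAMTSL and 4 TIMP genes. RNA came from 3 wild-type (WT) and 3 Anp32e null (Anp32e-/-) MEF cultures, which are primary fibroblasts grown out of mouse embryos and used here below passage 8. All 6 cultures shared the same medium and were harvested 1 day after plating, and the methods do not give the number of embryos behind them or the embryos' age. ANP32E is a histone chaperone that removes the histone variant H2A.Z from chromatin, and the study asked how its loss affects chromatin and gene expression.

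The deposited table has no column for a library or for a group, and its only measurement outside the authors' own comparison of the genotypes is the mean normalized count over all 6 libraries. A normalized count is the number of reads of a transcript in a library divided by that library's size factor, which corrects for sequencing depth. The level of each gene below is therefore the authors' mean over WT and Anp32e-/- cultures together, with no error of its own, and WT and Anp32e-/- were not compared. Anp32e, the deleted gene, had a mean of 2190 normalized counts, which cannot check the labels because both genotypes are in it. A read in 1 library moved a mean by 0.147 to 0.183 normalized counts. For a count of 0, a fixed limit of 3 reads was used, which is not a hard bound. These 3 reads correspond to a mean of about 0.499. Levels of different genes were compared only after division by the length of the exons in kilobases (kb). In RNA of a whole culture, fewer cells of a type and less RNA per cell cannot be told apart.

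MMPs are secreted or membrane-bound zinc proteases that cut collagens and other proteins of the extracellular matrix, and most are made as inactive precursors. ADAMs are membrane proteins, of which some shed the outer part of growth factors, cytokines and receptors, while others lack protease activity or act in sperm and the epididymis. ADAMTS proteases are secreted and cut proteoglycans, procollagens and other matrix proteins, ADAMTS-like proteins share their binding domains without the protease, and TIMPs are small secreted proteins that block the active site of these enzymes. Fibroblasts are a main source of many of them in connective tissue.

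Reads were present for 68 of the 85 members (80%, against 77.0% of all genes and 80.1% of protein-coding genes), and 17 had none. A mean of 10 or more normalized counts was reached by 47 members (55.3%, against 56.9% of all genes and 63.0% of protein-coding genes). All members are protein-coding, and whether their share differs from that of protein-coding genes in general was not tested. It includes 22 ADAM genes known from testis, sperm and epididymis, of which 3 (13.6%) reached this mean. A mean of at least 100 was reached by 35 members, beside 11521 of 25043 genes and 11037 of 20772 protein-coding genes. The families differed in how many of their genes reached a mean of 10. These were 3 of 4 TIMP, 15 of 23 MMP, 13 of 34 ADAM, 12 of 19 ADAMTS and 4 of 5 ADAMTSL genes. The median level per kb was 3687 for TIMP, 22.1 for MMP, 0.419 for ADAM, 21.3 for ADAMTS and 105 for ADAMTSL genes. It was 26.1 over all genes and 59.7 over protein-coding genes with a known length. The low ADAM median came from its many genes near 0, since its 13 genes with a mean of at least 10 had a median of 122 per kb.

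**Figure D1:**
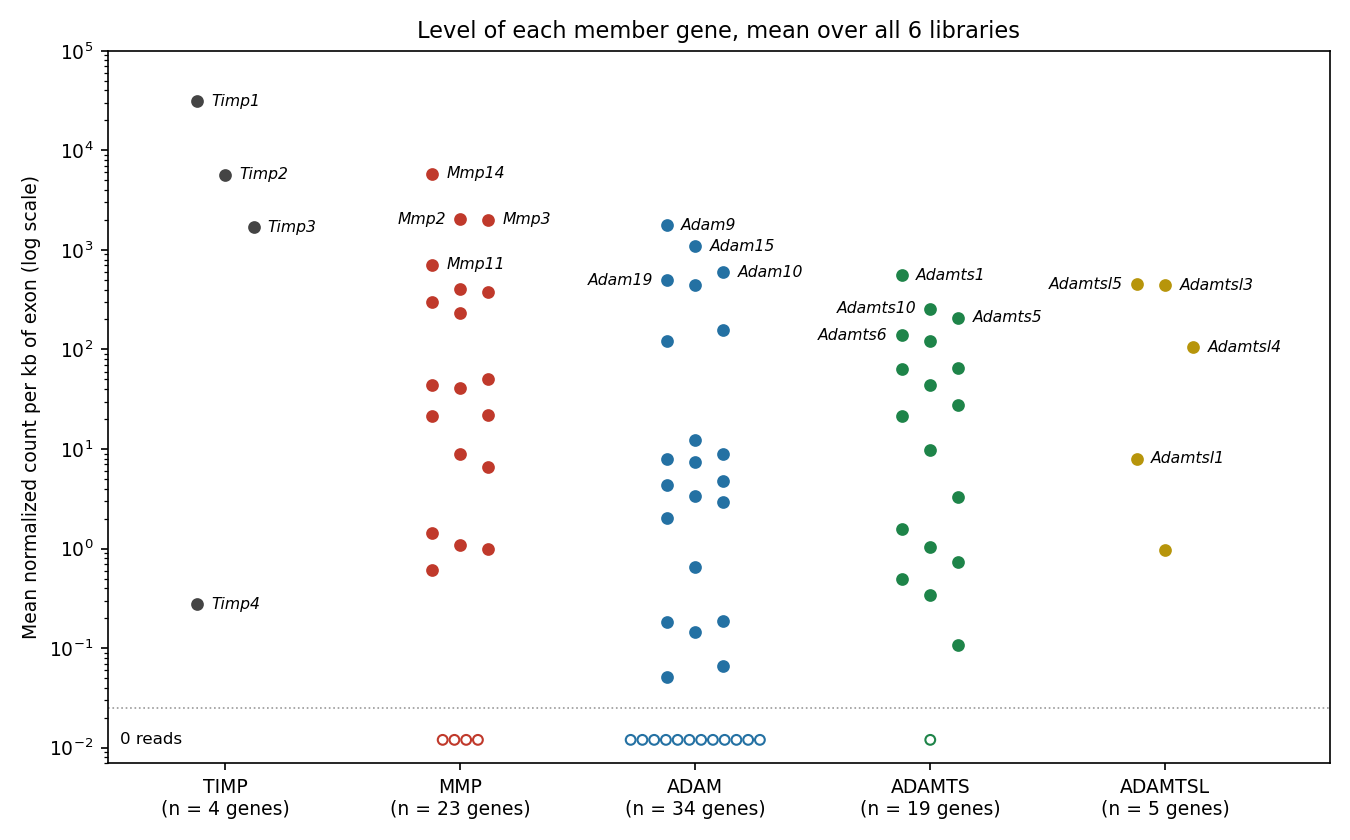
Mean normalized count per kb of exon (log scale) of each of the 85 members, by family, with 1 point per gene, the 4 highest of each family named and open circles for genes at 0 reads. Each family spreads over several orders of magnitude, Timp1 is the highest at 31041 per kb, and 12 of the 17 genes at 0 are ADAM genes.

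The inhibitors were led by Timp1, the highest of all members. Timp1 is a secreted inhibitor induced by growth factors and lies on chromosome X from 20870166 to 20874737 (GRCm38). Its mean was 27409 normalized counts, or 31041 per kb, above 99.5% of all genes, and it made up 80.8% of the level per kb summed over the 4 TIMP genes. Timp2, which also takes part in the activation of proMMP2 on the cell surface, had a mean of 21124 and a level of 5695 per kb. Timp3, which binds to the matrix and inhibits ADAM17 and several ADAMTS proteases as well as MMPs, had a mean of 7927 and a level of 1679 per kb. Timp4, the remaining inhibitor, was close to absent, with 9 reads in all and a mean of 1.51. The order by level per kb was thus Timp1, Timp2, Timp3 and Timp4, and whether neighbours in it differ beyond their spread between libraries cannot be read from means. Timp1, Timp3 and Timp4 each lie inside an intron-containing synapsin gene on the opposite strand. The host genes Syn1, Syn3 and Syn2 had means of 32.1, 32.1 and 8.51 normalized counts. Where the counting did not use the strand, reads of such pairs could not be separated over shared exons.

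Among the membrane-type MMPs, which are anchored on the cell surface, Mmp14 was the most abundant protease of all members. It encodes MT1-MMP, a collagenase that also activates proMMP2, and lies on chromosome 14 from 54431598 to 54442456. Its mean was 15097 normalized counts and its level of 5816 per kb made up 48.1% of the sum over the 23 MMP genes. Of the other membrane-type genes, Mmp24 had 234 per kb, Mmp16 50.6, Mmp15 22.1 and Mmp17 21.5, while Mmp25 had a mean of only 2.74 normalized counts. Mmp14 was thus more than an order of magnitude above its 5 relatives, and 5 of the 6 genes of this class reached a mean of 10.

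The gelatinases Mmp2 and Mmp9, which cut denatured collagen and basement membrane collagen, were unequal. Mmp2 had a mean of 6271 normalized counts and 2037 per kb, the second level among MMP genes, whereas Mmp9 had a mean of 21.1 and 6.63 per kb. The stromelysins, of which MMP3 and MMP10 cut proteoglycans and other matrix proteins and activate procollagenases, were all detected. Mmp3 had a mean of 3636 and 2019 per kb, close to Mmp2, and Mmp11 had a mean of 1618 and 707 per kb. Mmp10 had a mean of 75.7 and 44.0 per kb. Of the 4 genes for interstitial collagenases, Mmp13 was the main one, with a mean of 1000 and 374 per kb. Its relatives Mmp1b and Mmp1a had means of 12.9 and 2.03, and Mmp8, the collagenase of neutrophils, was at 0.

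Among the other MMPs, Mmp19 had 401 per kb (mean 1366), Mmp23 300 per kb (mean 430) and Mmp28 41.0 per kb (mean 100.4). Mmp21 and Mmp27 had means of 2.67 and 1.82 normalized counts. No read was counted on Mmp7, the matrilysin of epithelia, on Mmp12, the elastase of macrophages, or on Mmp20, the enamelysin of developing teeth. Several genes at 0 or near it are thus known from cell types other than fibroblasts. Mmp23 overlaps Mib2 (mean 1072) on the same strand, so its reads are uncertain, and Mmp19 overlaps Tmem198b (mean 2501) on the opposite strand.

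10 of the 23 MMP genes lie next to each other on chromosome 9, from 7272514 to 7699585. In chromosomal order, the levels were 374 per kb for Mmp13, 0 for Mmp12, 8.89 for Mmp1b, 2019 for Mmp3, 1.00 for Mmp1a, 44.0 for Mmp10, 0 for Mmp8, 1.09 for Mmp27, 0 for Mmp20 and 0 for Mmp7. The genes with the highest levels were thus in the first 6 places, with Mmp12, without a read, next to Mmp13, and the last 4 genes were at or near 0. Mmp3 and Mmp10 share 140 stretches of 50 bases (8.37% of the stretches of Mmp10), as do Mmp1a and Mmp1b with 165 (8.15% of those of Mmp1a), so some reads could fall on either copy.

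The promoters of this cluster were compared with those of the other members, because activator protein 1 (AP-1), a FOS and JUN dimer, is a known regulator of collagenase and stromelysin genes. RefSeq promoter sequences of GRCm38.p6, from 250 bases before to 50 bases after the annotated start, were found for 54 of the 85 members and for 27025 genes in all. The following 6 promoters of the cluster and those of Mmp14 and Timp1, the highest MMP and the highest TIMP gene, show the 120 bases before the start on the gene's strand, 5′ to 3′. They were picked after the matches were seen. Capitals mark the AP-1 letters TGAGTCA or their reverse complement TGACTCA, the TATA box letters TATAAA, and the GC box letters GGGCGG or CCGCCC.
Mmp13: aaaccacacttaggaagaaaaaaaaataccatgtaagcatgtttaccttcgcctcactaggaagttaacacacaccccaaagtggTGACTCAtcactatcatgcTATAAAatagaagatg
Mmp1b: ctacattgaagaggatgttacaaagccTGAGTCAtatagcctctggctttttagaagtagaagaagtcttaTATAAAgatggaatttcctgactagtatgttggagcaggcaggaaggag
Mmp3: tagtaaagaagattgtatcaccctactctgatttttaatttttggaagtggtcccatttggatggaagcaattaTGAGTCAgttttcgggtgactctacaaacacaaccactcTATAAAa
Mmp1a: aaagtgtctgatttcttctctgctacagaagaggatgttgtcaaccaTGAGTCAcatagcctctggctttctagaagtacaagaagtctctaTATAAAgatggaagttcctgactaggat
Mmp10: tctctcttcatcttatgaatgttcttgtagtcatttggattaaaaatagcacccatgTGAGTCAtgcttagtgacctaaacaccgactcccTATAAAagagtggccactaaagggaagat
Mmp7: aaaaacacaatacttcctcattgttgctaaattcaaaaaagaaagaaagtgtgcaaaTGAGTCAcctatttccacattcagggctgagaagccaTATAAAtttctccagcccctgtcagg
Mmp14: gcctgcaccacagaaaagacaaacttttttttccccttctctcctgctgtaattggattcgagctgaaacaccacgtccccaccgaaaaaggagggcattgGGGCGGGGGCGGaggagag
Timp1: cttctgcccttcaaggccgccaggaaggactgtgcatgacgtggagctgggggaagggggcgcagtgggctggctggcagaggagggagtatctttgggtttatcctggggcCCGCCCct

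These stretches lie at chr9:7272394-7272513 (plus strand) for Mmp13, chr9:7388027-7388146 (minus strand) for Mmp1b, chr9:7445702-7445821 (plus) for Mmp3, chr9:7464021-7464140 (plus) for Mmp1a, chr9:7502222-7502341 (plus) for Mmp10 and chr9:7691970-7692089 (plus) for Mmp7. Those of Mmp14 and Timp1 lie at chr14:54431478-54431597 and chrX:20870046-20870165, both on the plus strand. In the 120 bases shown of the 6 cluster promoters the AP-1 letters stood upstream of the TATA letters, and Mmp7 has another TATA match that begins 123 bases before the start, upstream of its AP-1 letters. The AP-1 match began 35 bases before the start in Mmp13, 46 in Mmp3, 63 in Mmp10, 63 in Mmp7, 73 in Mmp1a and 93 in Mmp1b. Both matches were present in Mmp3 at 2019 per kb and in Mmp7 at 0, so the letters alone did not mark which genes of the cluster had reads.

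Searched on both strands of the 300-base windows, the AP-1 letters were present in at least 1 window of 7 of the 10 cluster genes and of 3 of the 44 other members, beside 5.95% of all genes with a window. The 7 were the 6 genes printed above and Mmp12, whose match belongs to the later of its 2 annotated starts. The TATA letters were present in 9 of the 10 cluster genes, all except Mmp27, in 7 of the 44 other members and in 15.7% of all genes. Their place was not part of the count, and they began after the start in Mmp12 and 3 bases before it in Mmp8. The GC box letters were present in none of the 10 cluster genes, in 27 of the 44 other members and in 38.2% of all genes. The cluster genes thus held the AP-1 and TATA letters more often, and the GC box letters less often, than the other members, as counts of related sequences with no test. A match is not evidence of binding, and no binding was measured in these data.

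**Figure D2:**
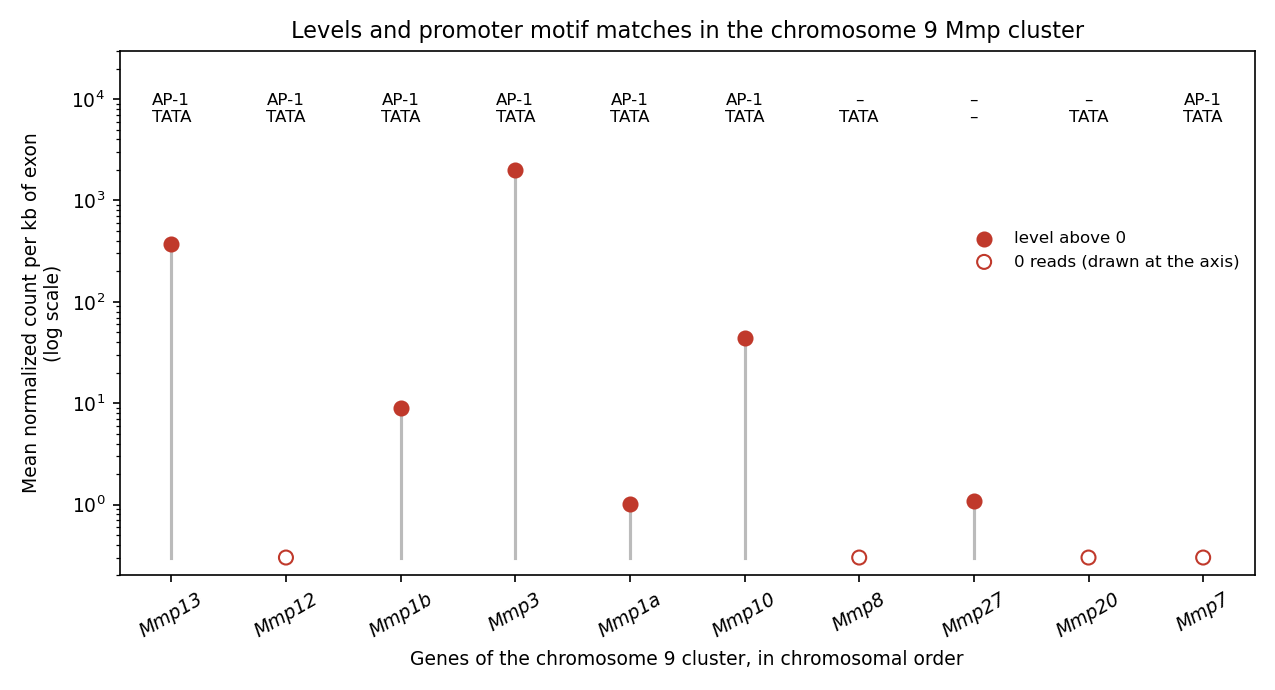
Mean normalized count per kb of exon (log scale) of the 10 MMP genes of the chromosome 9 cluster, in chromosomal order, with open circles for genes at 0 and, above each gene, whether the AP-1 or TATA letters occur in at least 1 of its 300-base promoter windows. Mmp3 stands highest at 2019 per kb and 4 genes have no reads, of which Mmp12 and Mmp7 carry both matches. The TATA letters of Mmp12 lie after the annotated start.

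CpG dinucleotides, which are dense in the promoters of broadly expressed genes, were counted in the same windows. The median number per window (the largest of a gene's windows) was 22 in the 31 members with a mean of at least 10 and 2 in the 23 members below it. Over all genes with a window and a mean in the table, the medians were 22 and 3, so the members were like other genes in this. Mmp3 and Mmp13 went the other way, with 1 CpG each and levels of 2019 and 374 per kb. Adamts3 had 41 CpG and a mean of only 4.10 normalized counts. The 11 members at 0 that have a window had a median of 1 CpG.

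**Figure D3:**
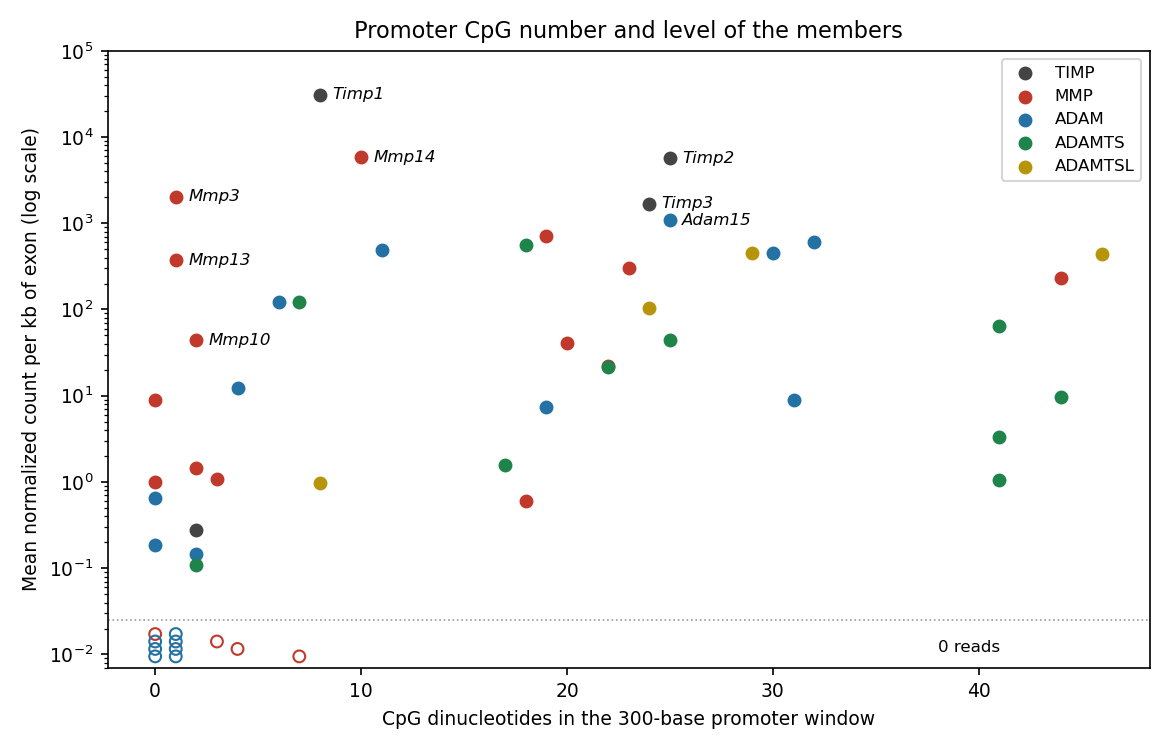
Mean normalized count per kb of exon (log scale) against the number of CpG dinucleotides in the 300-base promoter window, for the 54 members with a window, colored by family, with open circles (staggered in height) for genes at 0. Members at 0 have few CpG, and Mmp3, Mmp13 and Mmp10 stand out with levels of at least 44.0 per kb and 1 or 2 CpG.

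Among the ADAM genes, 9 encode proteases known mostly from somatic tissues, and 7 of these reached a mean of 100. Adam9, which sheds membrane proteins and binds integrins, had the highest level, with a mean of 7123 normalized counts and 1761 per kb, or 37.3% of the sum over the 34 ADAM genes. Adam15, which acts in cell adhesion, had a mean of 3238 and 1088 per kb. Adam10 and Adam17 are the main sheddases, for Notch and cadherins and for TNF and EGF receptor ligands. Adam10 had a mean of 2752 and 599 per kb, and Adam17 a mean of 2001 and 448 per kb. Adam19 had 494 per kb, Adam12, known from muscle and bone formation, 156, and Adam8 122. The other 2 genes of this class were low, with means of 5.61 for Adam33 and 0.550 for Adam28, a lymphocyte gene. Adam17 overlaps Iah1 (mean 708) on the opposite strand.

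Adam11, Adam22 and Adam23 lack protease activity and act at synapses, where ADAM22 and ADAM23 are receptors of LGI proteins. They were detected at low levels, with 9.0 per kb for Adam23, 7.46 for Adam22 and 3.38 for Adam11 (means of 57.8, 66.9 and 17.2 normalized counts). All of these were below the 7 abundant proteases of the family.

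The ADAM genes known from testis, sperm and epididymis made up 22 of the 34, and 10 of these 22 had reads. The genes with reads and a mean of at least 10 were Adam1a (mean 42.8), Adam4 (mean 19.97) and Adam32 (mean 11.7). Adam5 (9.86) and Adam3 (8.07) were just below 10. Adam21 had a mean of 1.90, and Adam1b, Adam6b, Adam2 and Adam24 had between 1 and 3 reads in all. The genes at 0 were Adam6a, Adam7, Adam18, Adam20, Adam25, Adam26a, Adam26b, Adam29, Adam30, Adam34, Adam34l and Adam39. This class thus held 12 of the 17 members at 0. Adam4 lies inside Gm20498 and Cox16, which are on the same strand and had means of 1651 and 1256, so its reads may belong to them. Adam20, Adam25 and Adam39 share between 661 and 726 stretches of 50 bases with each other, as do Adam6a with Adam6b (739), Adam26a with Adam26b (699) and Adam1a with Adam1b (1066), so that reads of 1 copy can be lost or counted on the other.

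Abundant and absent ADAM genes also lay side by side. On chromosome 8, from 24602246 to 25017040, Adam18 (0), Adam3 (2.94 per kb), Adam5 (4.34), Adam32 (4.78) and Adam9 (1761) follow each other. Adam9 ends this row of 5 genes and stood far above each of the others per kb. The other 2 groups of ADAM genes on chromosome 8, each of 4 genes, were Adam24, Adam25, Adam20 and Adam39, and Adam26b, Adam26a, Adam34l and Adam34. They had 1 read in all, on Adam24. In total, 39 members lie in 12 neighborhoods with gaps of at most 500 kb between members. Adamts1 and Adamts5, neighbors on chromosome 16, were both abundant, whereas Mmp21 (1.44 per kb) and Adam12 (156 per kb) on chromosome 7 were not alike.

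The ADAMTS proteoglycanases, which cut aggrecan, versican and related proteoglycans, were led by Adamts1, with a mean of 2726 normalized counts and 558 per kb, or 36.6% of the sum over the 19 ADAMTS genes. Adamts5, the main aggrecanase of mouse cartilage, had a mean of 2252 and 209 per kb. Adamts4 had 65.0 per kb, Adamts9 44.3 and Adamts20, known from melanoblast survival, 3.33. Adamts8 and Adamts15 had means of 1.81 and 2.04 normalized counts, so 5 of the 7 genes of this class reached a mean of 10. The reads of Adamts4 are uncertain if strand was not used in counting.

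Adamts10 and Adamts6, which act on fibrillin microfibrils, had 256 and 139 per kb, with Adamts5 between them in the order of the family. The highest transcript of Adamts6 in the table is a noncoding one with a mean of 1069, and its coding transcript had 1061. Both means can rest on the same reads. Adamts12 and Adamts7, which cut cartilage oligomeric matrix protein, had 123 and 27.8 per kb. Of the procollagen N-propeptidases, which trim fibrillar procollagens, Adamts2 had 63.6 per kb, Adamts14 9.73 and Adamts3 1.04. Adamts2 was the highest of the 3, with a mean of 462 normalized counts against 50.5 and 4.10. Adamts13, the von Willebrand factor protease of liver and endothelium, had 3 reads in all. Adamts18 had a mean of 120, Adamts17 of 9.58 and Adamts16 of 3.66, and Adamts19 was the only ADAMTS gene without a read.

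The ADAMTSL genes encode matrix proteins without a protease domain. Adamtsl5 and Adamtsl3 had nearly equal levels of 453 and 440 per kb, and Adamtsl4, which binds fibrillin, had 105. Adamtsl1 had 7.97 per kb and Adamtsl2, also a fibrillin-binding protein, 0.97. The highest transcript of Adamtsl5 is a noncoding one with a mean of 1593, and its coding transcript had 1318. These means, too, can rest on the same reads.

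Over all families, the 10 members with the highest level per kb were Timp1, Mmp14, Timp2, Mmp2, Mmp3, Adam9, Timp3, Adam15, Mmp11 and Adam10. Inhibitors took 3 of these places, MMPs 4 and ADAMs 3, and no ADAMTS or ADAMTSL gene was among them. More than 1 transcript was in the table for 37 of the 85 members. Reads can be counted on several transcripts of a gene, as both of Adam9 had a mean of 7123. The means of transcripts are therefore not levels of separate RNA forms. Among members with a mean of 10 or more, the widest difference between transcripts was in Adam22 (30.8 to 66.9), followed by Adam19 (2184 to 3153), Adamts20 (15.9 to 22.9), Adamtsl5 (1318 to 1593) and Mmp11 (1366 to 1618). The threshold of 10 normalized counts fell between Adam5 (9.86) and Adam32 (11.7).

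Genes that act with these families were examined from a list written for this purpose. All 59 were found and 48 had a mean of at least 10, which 56.9% of all genes and 63.0% of protein-coding genes reached. The proprotein convertases, which remove the propeptide of membrane-type MMPs, ADAMs and ADAMTS proteases, were all above this mean, with Furin at 1323 per kb, Pcsk6 at 973 and Pcsk7 at 470. In the plasminogen system, which activates secreted MMPs, 5 of 7 genes reached it. Plaur, the urokinase receptor, had 5283 per kb, Serpine2 1936 and Plau, which encodes urokinase, 1256, while Plg, which encodes plasminogen and is made in liver, was at 0. In a further list of 4 genes, Serpinh1 had 31577 per kb, a serpin by sequence that encodes the collagen chaperone HSP47 and is not a protease inhibitor. Rarres1 had 139 and Reck, a membrane-anchored MMP inhibitor, 44.4 per kb, and A2m, the plasma protease inhibitor alpha-2-macroglobulin, was at 0.

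Regulators of ADAM10 and ADAM17 were detected for 8 of 9 genes. The iRhom-binding protein gene Frmd8 had 990 per kb, Rhbdf1 (iRhom1) 911 and Tspan5, a tetraspanin partner of ADAM10, 612, while Tspan10 had a mean of 0.327 normalized counts. Bsg, the MMP inducer basigin, had 27851 per kb. Both clearance receptors were present, with Lrp1, which takes up MMP and TIMP complexes, at 1295 per kb and Mrc2 at 302. Of the other metzincins of the matrix and their enhancers, 5 of 10 reached a mean of 10, led by Pcolce at 11184, Bmp1, the procollagen C-proteinase, at 1115 and Pcolce2 at 517 per kb. Of the 22 substrates, 20 reached it. Thbs1 had 32166 per kb, Fn1 10396 and Col1a2 4411. The large aggregating proteoglycan genes were unequal, with Vcan at 253 per kb, Acan at 1.92, Bcan at 1.86 and Ncan at 0.0220.

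The labelled cell type was checked against marker genes. All 9 fibroblast markers had a mean of at least 10, as had 56.9% of all genes. Vim had 150796 and Col1a1 4408 per kb, and the lowest were Pdgfra at 91.9 (mean 628) and Dcn at 81.8 (mean 144). Mesothelial (4 of 4) and chondrocyte markers (3 of 3) also reached a mean of 10. Their means ran from 300 (Wt1) to 7400 (Krt19) and from 14.1 (Acan) to 577 (Col2a1). Of the markers of other cells, 3 of 6 epithelial, 2 of 4 endothelial, 2 of 5 macrophage, 1 of 3 skeletal muscle, 0 of 3 neural crest and glial and 1 of 5 testis germ cell genes did. Within these lists, Krt18 (mean 1106), Cdh1 (67.1) and Krt8 (26.7) stood beside Epcam (5.12), Krt14 (1.54) and Krt5 (1.17) for epithelium, and Kdr (2958) and Tek (34.4) beside Pecam1 (4.47) and Cdh5 (3.54) for endothelium. For macrophages, Cd68 (257) and Csf1r (40.1) stood beside Ptprc (3.09), Lyz2 (1.68) and Adgre1 (0.178). Des (59.6) had reads where Myog (0.590) and Myod1 (0) had few or none, and Ddx4 (99.5) had reads where Prm1 (0.504), Dazl (0.147), Prm2 (0) and Tnp1 (0) had few or none. These 5 lists were thus mixed, with some markers above a mean of 10 and others at or near 0, and the neural crest and glial markers lay between 3.81 and 8.22. The part of other cell types in the levels of the members was not tested.

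For members with a mean under 100, the reads in each library could be recovered from the mean itself, because it is a sum of 6 whole numbers of reads, each divided by a size factor that the lowest means of the table reveal. The size factors were 1.13, 1.05, 1.03, 0.987, 0.936 and 0.909, and the libraries are numbered 1 to 6 in this order. No column ties them to a sample, so none was assigned to WT or Anp32e-/-. Sets of libraries named below were read from the same counts and were not compared in a test. All 33 members with reads and a mean under 100 had exactly 1 solution, as had all 7327 transcripts of the table with a mean under 10. The 12 with the highest means are given first. Values below are reads per library in the order 1 to 6, and levels compared between libraries are normalized counts.

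Among the MMPs, Mmp10 had 27, 25, 132, 43, 103 and 113 reads. Its normalized counts ran from 23.8 to 128, a 5.40-fold range, with libraries 3, 5 and 6 high. Some of these reads could come from Mmp3 (mean 3636), with which Mmp10 shares 140 stretches of 50 bases. Mmp9 had 2, 4, 34, 5, 33 and 43 reads, from 1.77 to 47.3 normalized counts, and was high in the same 3 libraries. Mmp1b had 2, 2, 27, 0, 34 and 10 reads, with a median of 6.45 and a maximum of 36.3 normalized counts in library 5. Without library 5 its mean was 8.19 in place of 12.9, under the threshold of 10. The means of these 3 proteases therefore hide libraries that differed several-fold.

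In the ADAM family, Adam22 had 116, 77, 66, 93, 32 and 30 reads on its highest transcript, from 33.0 to 103 normalized counts, a 3.11-fold range with libraries 5 and 6 lowest. Adam23, its relative at the synapse, had 92, 92, 32, 83, 26 and 32 reads, with 81.4 to 87.5 normalized counts in libraries 1, 2 and 4 and 27.8 to 35.2 in the others. Adam11, the remaining member of this class, had 9, 30, 12, 31, 13 and 9 reads and stood above the rest in libraries 2 and 4. These patterns were not the same, with library 1 highest for Adam22 and lowest for Adam11.
Adam1a had 42, 61, 63, 31, 18 and 45 reads, a 3.19-fold range of normalized counts. Adam4 had 31, 26, 14, 17, 18 and 16 reads, the narrowest range of the 12 at 2.01-fold. Adam32 had 3, 10, 11, 17, 18 and 10 reads. These 3 genes of the testis and sperm class thus had reads counted in every library, although those of Adam4 may belong to Gm20498 or Cox16.

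Of the secreted ADAMTS and ADAMTSL genes, Adamtsl1 had 77, 70, 62, 70, 74 and 27 reads. Its libraries 1 to 5 lay between 60.4 and 79.1 normalized counts and library 6 at 29.7. Adamts14 had 37, 24, 60, 37, 50 and 89 reads, with library 6 highest at 97.9 normalized counts, a 4.29-fold range. Adamts20 had 16, 9, 51, 16, 18 and 27 reads, with library 3 highest at 49.6, a 5.80-fold range. Library 6 was therefore the lowest for Adamtsl1 and the highest for Adamts14.

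**Figure D4:**
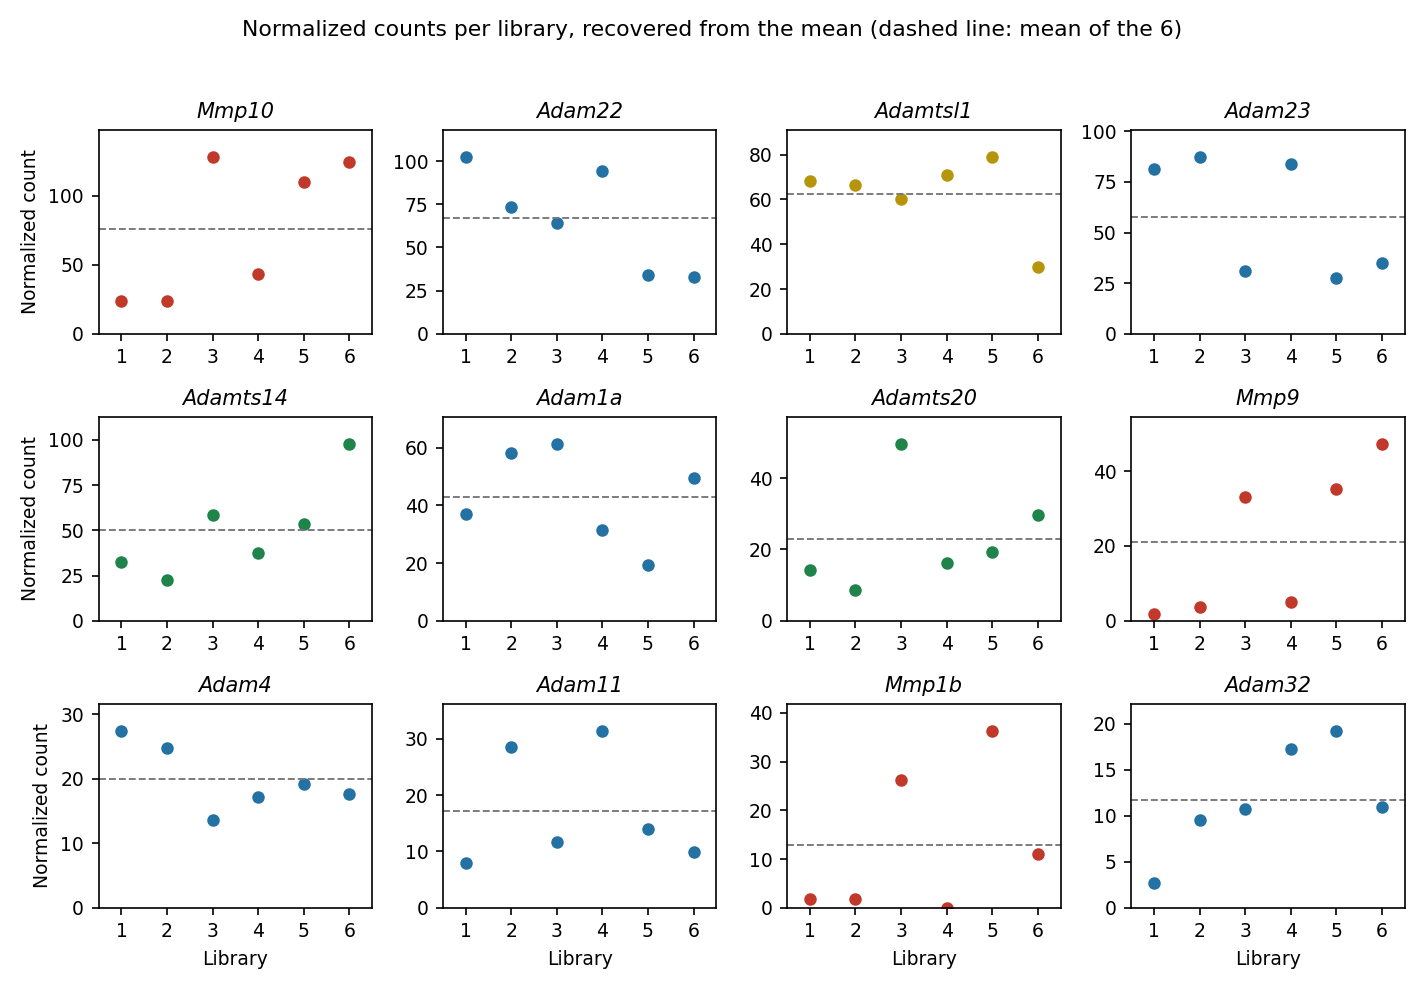
Normalized counts in libraries 1 to 6 (numbered by falling size factor, not assigned to a genotype) of the 12 members with the highest means under 100, with 1 panel per gene, its own linear axis from 0 and a dashed line at the mean. Mmp10 and Mmp9 are high in libraries 3, 5 and 6, Adam23 is low in these, and Adam4 varies least, by 2.01-fold.

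The other 21 of the 33 members had means under 10. Adam5 had 12, 7, 11, 8, 1 and 20 reads, Adamts17 had 9, 13, 7, 0, 14 and 14, and Adam3 had 14, 23, 0, 14, 0 and 0. Adam3 thus had all of its 51 reads in libraries 1, 2 and 4, although its neighbor Adam5 had reads in all 6. Timp4 had 0, 0, 3, 5, 0 and 1 reads. In 6 members reads came from 1 library only, and all of these had at most 3 reads. At such numbers a gene with few reads cannot be told from one without.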

How the data were processed

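RNA-Seq of 3 WT and 3 Anp32e-/- MEF cultures was measured with a stranded total RNA kit and paired-end reads. According to the methods and the submitters' processing notes, reads were aligned to mm10 with STAR, counted on RefSeq transcripts with featureCounts of Subread (strand and multi-mapping settings not given in the sources used here) and analyzed with DESeq2. The signal used here, as deposited by the authors, is a mean over 6 libraries of read counts, each scaled by the library's DESeq2 size factor. The other columns hold the authors' comparison of the genotypes (log2 fold change, its standard error, Wald statistic, p-value and adjusted p-value) and were not used. There was no column for a single library and totals per library are unknown, so no test was run, no replicate spread can be given for most members, and the precision of a mean is that of its reads. Counting error is the only error that the limit of 3 reads covers.

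Of 42361 transcripts, 42203 were matched to 25043 genes with RefSeq (GRCm38.p6, the same build as mm10), and 158 were not. Levels were divided by the exon length of GENCODE vM21 transcripts, known for 24711 genes; for 3 members it was taken by symbol. Positions are those of RefSeq genes. Reads per library were found as all whole-number solutions within the rounding of the 15 digits of a mean, for means under 100. On simulated means with the size factors of these 6 libraries, 100 of 100 solutions were right between means of 0.5 and 5, 100 of 100 between 5 and 20, 40 of 40 between 20 and 50 and 25 of 25 between 50 and 80. The same size factors built and solved these means, so the simulation did not test an error in them. Named were all TIMP genes, up to 8 genes per family with the highest level per kb at a mean of at least 10, the 3 members on each side of a mean of 10, the 12 members with the highest recovered mean, members sharing a cluster or sequence, Anp32e and up to 3 partners per role, and the others by range or count; additional partners and the markers named were chosen after their values were seen. Some results under the rule for named genes are not reported here. The members and lists were chosen with earlier results of these data known. Computations used numpy 2.4.6 and pandas 2.3.3 under Python 3.11.15, with figures from matplotlib 3.10.9.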

Additional observations from a re-analysis of the deposited data

How the results depend on the processing

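The number of members with reads (68), at a mean of at least 10 (47) and of partner genes at that mean (48) stayed within 1.5 times under every alternative tried, which were thresholds of 3, 30 and 100, a threshold per kb, the longest transcript, the sum over transcripts and protein-coding members alone, as far as each applied. With thresholds of 3 and 100, 54 and 35 members passed. Median levels per kb of a family depended on the length and on the filter. With coding length they were 22264 for TIMP, 57.7 for MMP, 0.552 for ADAM, 29.2 for ADAMTS and 74.2 for ADAMTSL genes, which leaves out Adamtsl5, whose transcript is noncoding, and takes a shorter length for the others. Over members with a mean of at least 10 they were 5695, 234, 122, 64.3 and 273 in the same order, since genes near 0 were left out. Of the 10 members with the highest level per kb, 9 were among the first 10 with coding length and 8 with no division by length. Reads per library were recovered for 33 members with a tolerance 3 times as wide, and for 29 with size factors read directly from transcripts with 1 read. Leaving out each library in turn, chosen after seeing the data, was possible for the 33 members with recovered reads. Of these, 12 had a mean of at least 10 with all libraries, and from 12 to 14 with 1 left out. Mmp1b fell below 10 without library 5 (8.19), the only one of the 12 to move by over 1.5 times, while Adam5 (at most 11.6) and Adamts17 (at most 11.5), just under 10, passed it without some libraries. For members with means of 100 or more no library could be left out. No paired analysis was possible because the columns used carry no sample and no test was run. Depth limits statements on the 21 members with reads and means under 10.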

Other observations

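For the 12 members described by library, the largest gap between neighboring normalized counts was measured on the log2 scale after adding 0.5. Every gene has such a gap, so a gap in 1 gene is by itself no sign of separate clusters. It fell between libraries 1, 2 and 4 and libraries 3, 5 and 6 in Mmp9, Mmp1b, Mmp10 and Adam23. In the rest of the 12 it fell elsewhere. Among the members with recovered reads and means under 10, it fell there in Adam3 (4.69) and Adamts15 (2.34) and elsewhere in the others. Both had no reads in libraries 3, 5 and 6. Neither the gaps nor this split were tested. The gap was 2.59 for Mmp9, above 1.77, 3.80 and 5.07 normalized counts in libraries 1, 2 and 4 and below 33.1, 35.3 and 47.3 in libraries 3, 5 and 6. It was 2.26 for Mmp1b, with 1.77, 1.90 and 0 below it in libraries 1, 2 and 4 and 26.3, 36.3 and 11.0 above it in libraries 3, 5 and 6. It was 1.67 for Adam32, with 2.65 in library 1 below it and 9.51, 10.7, 17.2, 19.2 and 11.0 in libraries 2 to 6 above it. It was 1.33 for Mmp10, with 23.9, 23.8 and 43.6 in libraries 1, 2 and 4 below it and 128, 110 and 124 in libraries 3, 5 and 6 above it. It was 1.20 for Adam23, with 31.2, 27.8 and 35.2 in libraries 3, 5 and 6 below it and 81.4, 87.5 and 84.1 in libraries 1, 2 and 4 above it. It was 1.01 for Adam11, with libraries 2 and 4 (28.5 and 31.4) above 7.96, 11.7, 13.9 and 9.90 in libraries 1, 3, 5 and 6, and 1.01 for Adamtsl1, with library 6 (29.7) below 68.1, 66.6, 60.4, 70.9 and 79.1 in libraries 1 to 5. It was 0.90 for Adam22, with libraries 5 and 6 (34.2 and 33.0) below libraries 1 to 4 (103, 73.2, 64.2 and 94.2). The remaining 4 members had gaps of 0.74 (Adamts14), 0.73 (Adamts20), 0.69 (Adam1a) and 0.35 (Adam4). For these, library 6 (97.9) stood above the others in Adamts14, library 3 (49.6) above the others in Adamts20, library 5 (19.2) below the others in Adam1a, and libraries 1 and 2 (27.4 and 24.7) above the others in Adam4. The libraries were not assigned to samples.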
